A study of Schizosaccharomyces pombe with 4 samples.

Results

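The left end of chromosome III of the fission yeast Schizosaccharomyces pombe, just beyond the annotated ribosomal RNA genes, was analysed for newly made histone H3. The region was taken as all array probes of chromosome III whose lower coordinate lies from 23111 to 49970, which gave 537 probes of 43993 in all. The probes, called tiles below, are 60 bases long and start every 50 bases. Distance along the region was counted from its first tile, in 27 bins of 1 kb.

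The study followed nucleosome turnover with a FLAG-tagged H3 in wild-type cells (WT), in clr3D cells, with the IRD2 allele, and with both changes together (IRD2 clr3D, called the double mutant), 4 genotypes in all. All 4 carried the plasmid pINV1-H3.2-FLAG, grew at 30 °C in EMM-Leu with 8% glucose, and were held in 15 mM hydroxyurea, which stalls DNA replication, for 4 h. They were then moved to 4% sucrose with the drug kept on for 2 h, which switches on the tagged histone. DNA bound by the anti-FLAG gel was labelled with Cy5 and whole-cell extract DNA of the same cells with Cy3, and each genotype was hybridised to 1 array. The labels name the allele IRD2 (also IR-D2) but do not define it, so it is used here as a name. The tagged H3 comes from a plasmid beside the cells' own H3, so the values report the tagged protein. With 1 array per genotype no difference has a replicate check and none was tested. The clr3 deletion was measured in 2 pairs of arrays, but a fit over the 4 arrays would take any departure from additivity as error, so none was made. SDs below are spreads between tiles, which are not replicates of a genotype.

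Ribosomal DNA of fission yeast lies in long tandem arrays at both ends of chromosome III. Beside such arrays and at other chromosome ends, nucleosomes can carry methylated H3 lysine 9, bind the HP1 protein Swi6 and stay poor in acetyl marks. Clr3 is a histone deacetylase of the SHREC complex that works in this heterochromatin, and its loss is known to raise histone turnover there. Old histones that stay in place leave little room for tagged H3, so a low Cy5/Cy3 ratio is read in this assay as slow turnover and a high one as fast turnover.

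The coordinates were first checked against the reference genome ASM294v3, because the deposited headers name no build. From base 23111 the reference is identical, over 1460 bases, to the DNA one ribosomal repeat unit (10870 bases) upstream, and the identity ends after base 24570. The extract signal of the array ended its high stretch at that same base. The last tile wholly inside the repeat (chr3:24511-24570) exceeded the next tile (chr3:24561-24620) in log2 extract signal by 3.64 (WT), 4.14 (clr3D), 3.63 (IRD2) and 3.72 (double mutant). The reference annotates 4 long terminal repeats, remnants of Tf retrotransposons, in the region. The one at 43111 to 43459 has 7 tiles that match from 61 to 145 other places, and their median log2 extract signal was 2.51 in WT. The others (26343 to 26675, 31728 to 31925 and 49206 to 49550), whose tiles have a median of 1 other place each, were not bright, with medians of -0.63, -0.16 and -0.83. Over the 508 tiles outside the repeat, GC content and extract signal matched best at an offset of -2 bases. Reference coordinates and gene names were therefore used.

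The junction is printed because it divides the region. Capitals mark the bases identical to the upstream repeat unit, and lower case marks the DNA after it (ASM294v3, plus strand).
junction, chr3:24471-24670: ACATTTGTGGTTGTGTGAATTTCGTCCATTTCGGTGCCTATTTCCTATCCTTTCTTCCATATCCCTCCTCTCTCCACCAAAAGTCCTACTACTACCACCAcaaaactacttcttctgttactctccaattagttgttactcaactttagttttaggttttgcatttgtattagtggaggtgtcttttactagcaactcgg

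The name of the region therefore goes against the data for its first 29 tiles (23111 to 24570), which are ribosomal repeat DNA upstream of the 18S gene SPRRNA.44 and are identical to a second place over all 60 bases. Most of the following 230 tiles (24561 to 36070) are not unique either. Of these, 227 matched, over at least 48 of 60 bases, a stretch of the same chromosome beside the ribosomal genes of its other end (2427770 to 2439564 of 2452883 bases), and the best match of 225 of the 227 ran in the opposite orientation. At 128 of them the match at the right end was identical over all 60 bases. Signal of these tiles therefore cannot be told apart between the left and right ends of chromosome III. The last 278 tiles (36061 to 49970) are mostly unique, with 241 matching no other place. The 3 stretches are called the repeat tiles, the duplicated stretch and the unique stretch below, and this division was made after the data were seen.

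Across the whole region the median log2 Cy5/Cy3 ratio, centred on each array's median so that 0 is the typical tile, was -0.03 (WT), 0.13 (clr3D), -0.06 (IRD2) and 0.17 (double mutant) (SD between tiles 0.41, 0.48, 0.40 and 0.64, n = 537 tiles). These single values hide 3 different patterns, one for each stretch. The repeat tiles had low ratios in every array and the lowest in the double mutant. The duplicated stretch had higher ratios in both arrays without clr3. The unique stretch had a median close to 0 in all 4, while its bins ran from -0.48 to 0.61 in WT.

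**Figure D1:**
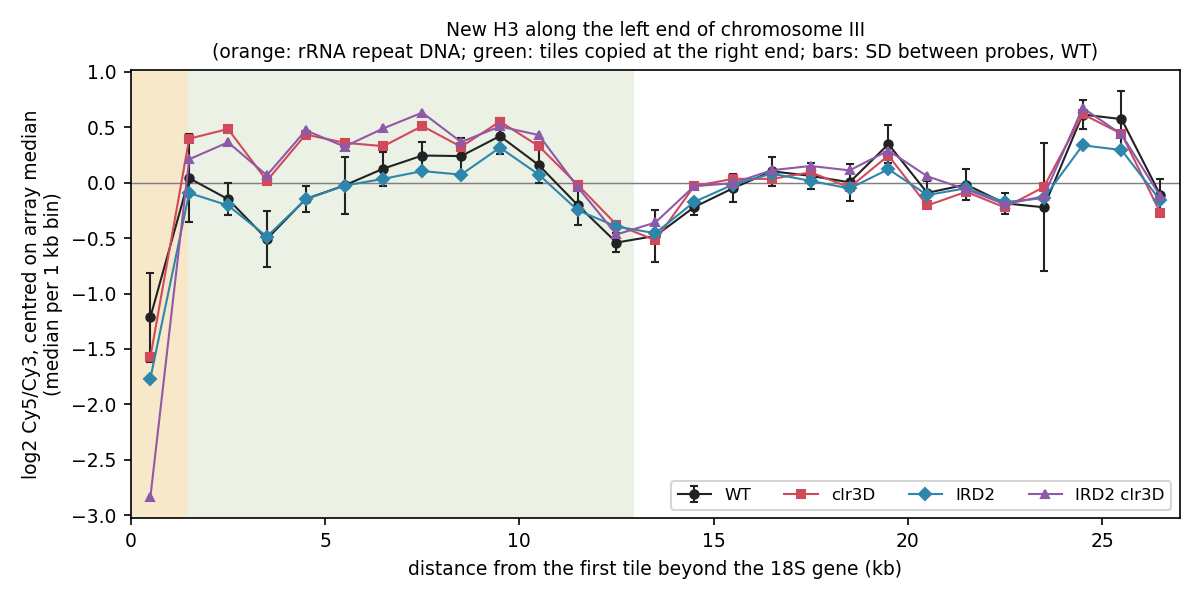
Median log2 Cy5/Cy3 ratio in each 1 kb bin (vertical axis) against distance from the first tile (horizontal axis, kb) in the 4 arrays, with the SD between tiles of WT as bars. Both arrays without clr3 run above WT and IRD2 from about 2 to 8 kb, inside the duplicated stretch (green), and the lines run closer together past bin 13, apart from lower IRD2 values in bins 25 and 26.

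In WT the ratio changed along the region more than any single median shows. The lowest bin was the first (median -1.21), followed by bin 13, at 12 to 13 kb, at -0.54 and bin 4 at -0.51. The highest were bin 25 (0.61), bin 26 (0.57) and bin 10 (0.42). The duplicated stretch thus held both a dip and a peak of new H3, and its median of -0.02 in WT lay near that of the unique stretch (-0.03). In single tiles of the unique stretch, the SD between neighbours was 0.11 for the WT ratio but 0.58 for the extract channel and 0.59 for the FLAG channel alone. Within 1 array, single channels thus varied far more from tile to tile than the ratio. For differences between 2 arrays they did not. The SD was 0.11 (ratio), 0.14 (extract) and 0.14 (FLAG) for clr3D minus WT, and 0.13, 0.10 and 0.13 for the double mutant minus IRD2. GC content and ratio were only weakly related, with r = 0.20 in WT and from 0.10 to 0.21 over the 4 arrays (508 tiles of shared arrays and sequence, given as a description).

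Gene by gene, WT ratios were highest over the far part of the unique stretch. Mean values over tiles were 0.65 ± 0.13 (SD between tiles, 24 tiles) for hsp3101 (III, 47325 to 48501, minus strand), a glyoxylase III of the DJ-1 family, 0.65 ± 0.11 (27 tiles) for the overlapping non-coding RNA SPNCRNA.1100 (47513 to 48882) and 0.62 ± 0.23 (12 tiles) for SPNCRNA.1099 (46987 to 47566). The lowest were SPNCRNA.1094 in the repeat at -0.95 ± 0.24 (4 tiles), new22 (36421 to 36657), a small protein-coding gene, at -0.67 ± 0.26 (5 tiles), and SPNCRNA.6680, a non-coding RNA around it on the other strand, at -0.55 ± 0.21 (23 tiles). In all, 27 annotated genes touch the region and 25 had at least 3 tiles, of which 7 code for proteins, 17 are non-coding RNAs and 1 is a pseudogene. Overlapping genes share tiles, so their values are not separate measurements.

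Across the repeat tiles the ratio climbed towards the junction in every array. At the first tile (23111) it was -1.23 (WT), -1.65 (clr3D), -1.85 (IRD2) and -3.05 (double mutant). Halfway along, at 23861, it was -0.87, -1.13, -1.38 and -2.48. At the last tile (24511) it reached 1.17, 1.59, 0.87 and 1.12, above the array median in all 4. One tile further, mostly outside the repeat, it was -0.03, 0.23, -0.19 and 0.02. The double mutant thus ran below the other 3 arrays for most of the repeat tiles and met them at its edge.

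**Figure D2:**
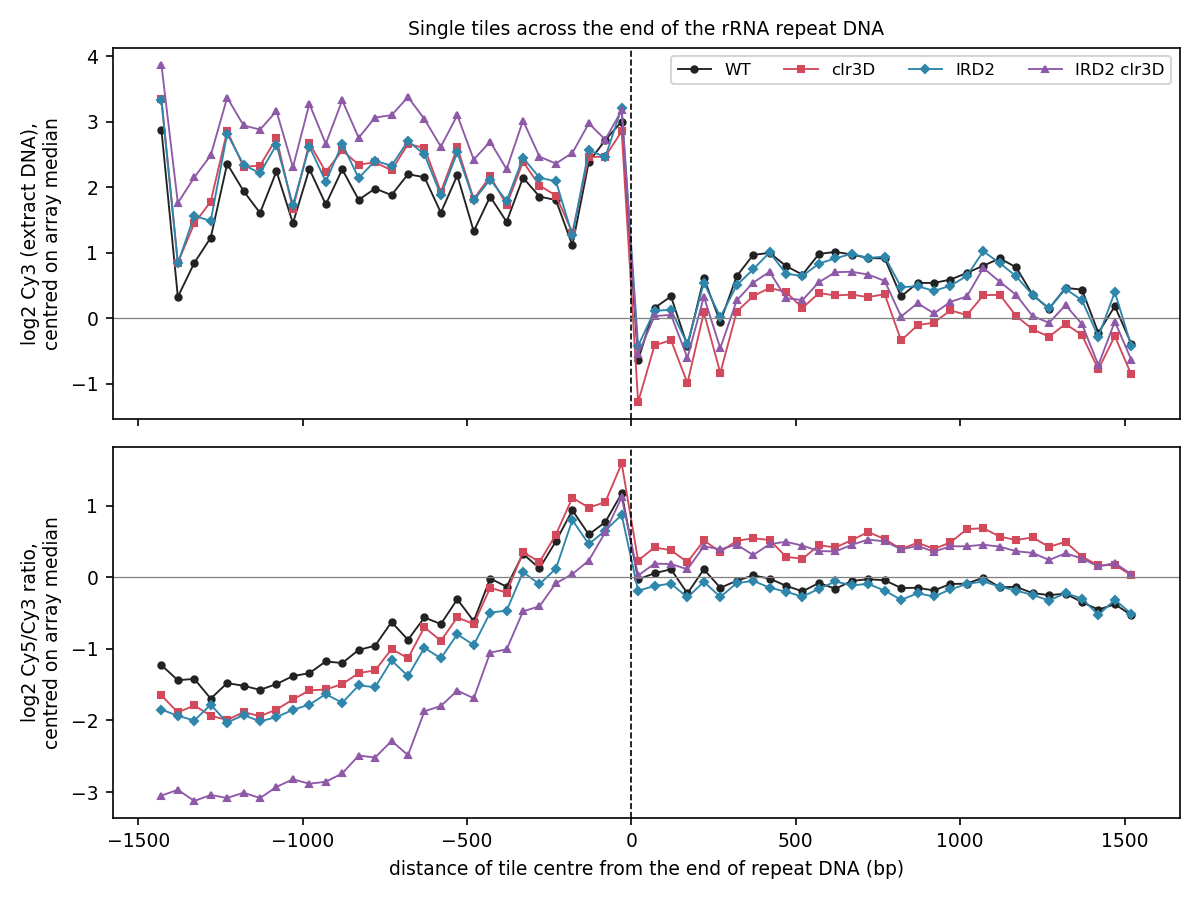
Extract signal alone (top, log2 Cy3) and log2 Cy5/Cy3 ratio (bottom) of single tiles against their distance in bp from the end of the repeat DNA (dashed line), for the 4 arrays. Extract signal drops by more than 3 log2 units at the line in each array, and the ratio climbs through the repeat from below -1 to near or above 1.

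The median over the 29 repeat tiles was -0.87 (WT), -1.13 (clr3D), -1.38 (IRD2) and -2.48 (double mutant). The medians of the other tiles of ribosomal genes on the array (460 or 461 per array) had the same order, at -0.60, -1.21, -1.24 and -2.52. The extract channel differed more between the arrays than the FLAG channel did. Its median over the repeat tiles was 1.88 (WT), 2.33 (clr3D), 2.33 (IRD2) and 2.88 (double mutant), while that of the FLAG channel was 1.09, 1.19, 0.92 and 0.83. The median tile difference between the double mutant and IRD2 was 0.58 in the extract channel and -0.32 in the FLAG channel. How many repeat copies each strain carries, and how much of them each had copied in hydroxyurea, was not tested. Tiles of the preceding repeat unit, displaced by 20 bases on the array, gave the same ratios to within a median of 0.04 in each array (SD from 0.18 to 0.24, 29 pairs).

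Both long non-coding RNAs annotated in the repeat tiles had this order of the 4 arrays. SPNCRNA.1094 (23658 to 23889) read -0.95 (WT), -1.28 (clr3D), -1.49 (IRD2) and -2.51 (double mutant), and the double mutant was lower than IRD2 by a mean log2 difference of -1.02 (SD 0.07, all 4 tiles lower). SPNCRNA.1095 (23919 to 24438) read -0.04, -0.09, -0.39 and -0.99, with a difference of -0.60 (SD 0.21, all 10 tiles lower). Its clr3D minus WT difference was -0.05, with 4 of 10 tiles above 0.

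Deletion of clr3 was compared next, as clr3D minus WT and as the double mutant minus IRD2. These pairs share no array. In the duplicated stretch the ratio median was -0.02 in WT and 0.34 in clr3D, and -0.07 (IRD2) and 0.39 (double mutant). The median difference over its 230 tiles was 0.26 (SD 0.21) for clr3D minus WT and 0.40 (SD 0.26) for the double mutant minus IRD2. It was above 0 at 93.9% of the tiles in the first pair and 90.4% in the second. A difference of at least 0.3 (a factor of 1.23) was counted as past the fold. By that count 98 of 230 tiles (42.6%) were higher in clr3D than in WT, against 7.27% of all probes of the array. In the second pair 147 of 230 (63.9%) were higher, against 7.52% of all probes.

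The difference was largest in the part nearest the repeat. Of the 27 bins, 5 were higher past the fold in clr3D (bins 2 to 6, from 1 to 6 kb), where 5.73% of all 1 kb bins of the array were. Bin 3 (25111 to 26120) had the largest difference, 0.62, from -0.15 in WT to 0.48 in clr3D, followed by bin 5 at 0.57 and bin 4 at 0.50. In the IRD2 background 7 bins were higher past the fold (bins 3 to 8 and bin 11), where 5.18% of all bins were, and bins 5, 3 and 4 again led with 0.71, 0.56 and 0.56. The first bin, in the repeat, was the only one lower past the fold in either pair, by -0.34 and -1.04, where 3.87% and 2.14% of all bins were. Over the 131 tiles of bins 2 to 8 outside the repeat, every tile was higher without clr3 in both pairs, with medians of 0.44 and 0.52. Over the next 99 tiles, to the end of the duplicated stretch, the medians were 0.14 and 0.23. In this stretch distance and sequence identity change together. Tiles identical over all 60 bases to any other place, at the right end or elsewhere, had medians of 0.44 and 0.51 (130 tiles), and those with 48 to 59 identical bases 0.14 and 0.23 (97 tiles). The 3 tiles with no such match, all in the far part, had 0.19 (3 of 3 above 0) and -0.04 (1 of 3 above 0). Among bins 9 to 13, the 11 identical tiles had 0.18 and 0.32 and the 88 others 0.12 and 0.22.

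The 3 tiles with the largest clr3D minus WT difference are printed as examples of the DNA involved. All 3 lie between the repeat and the first annotated gene, in no annotated gene, and all match the right end of the chromosome over 60 of 60 bases (ASM294v3, plus strand).
tile A, chr3:27211-27270: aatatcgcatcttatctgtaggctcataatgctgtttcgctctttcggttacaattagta
tile B, chr3:25761-25820: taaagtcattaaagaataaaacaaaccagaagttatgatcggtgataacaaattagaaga
tile C, chr3:25561-25620: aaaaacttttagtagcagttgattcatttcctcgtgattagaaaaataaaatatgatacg
Tile A read -0.09 (WT), 0.70 (clr3D), -0.10 (IRD2) and 0.66 (double mutant). Tile B read -0.22, 0.56, -0.25 and 0.34, and tile C -0.09, 0.67, -0.09 and 0.43. The choice of these tiles fixed that clr3D read above WT. In the pair not used for the choice, the double mutant read above IRD2 at each, as it did at all 131 tiles of bins 2 to 8 outside the repeat.

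The 2 channels did not contribute alike in the 2 pairs. In clr3D minus WT the median of the duplicated stretch was -0.01 in the FLAG channel and -0.29 in the extract channel, so the higher ratio went with a lower extract signal and not with a higher FLAG signal. In the double mutant minus IRD2 it was 0.30 in the FLAG channel and -0.05 in the extract channel. Bins 2 to 8 gave 0.06 (FLAG) and -0.38 (extract) in the first pair and 0.36 and -0.12 in the second. In the unique stretch the first pair gave -0.11 (FLAG) and -0.13 (extract), and the second 0.19 and 0.06. The -0.13 went with 21.9% of its tiles above 0, against 51.1% of all probes. The 0.19 went with 89.6% above 0, against 51.9% of all probes. Neither channel shift was thus confined to the duplicated stretch. By FLAG signal alone no bin was higher past the fold in clr3D (1.23% of all bins were), and 6 were in the double mutant against IRD2 (3.14% of all bins). Of these 6, bin 21 lies in the unique stretch. By extract signal alone 5 bins were lower past the fold in clr3D, against 5.05% of all bins, and 1 in the double mutant against IRD2, against 4.23%. Why the extract signal differs was not tested.

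**Figure D3:**
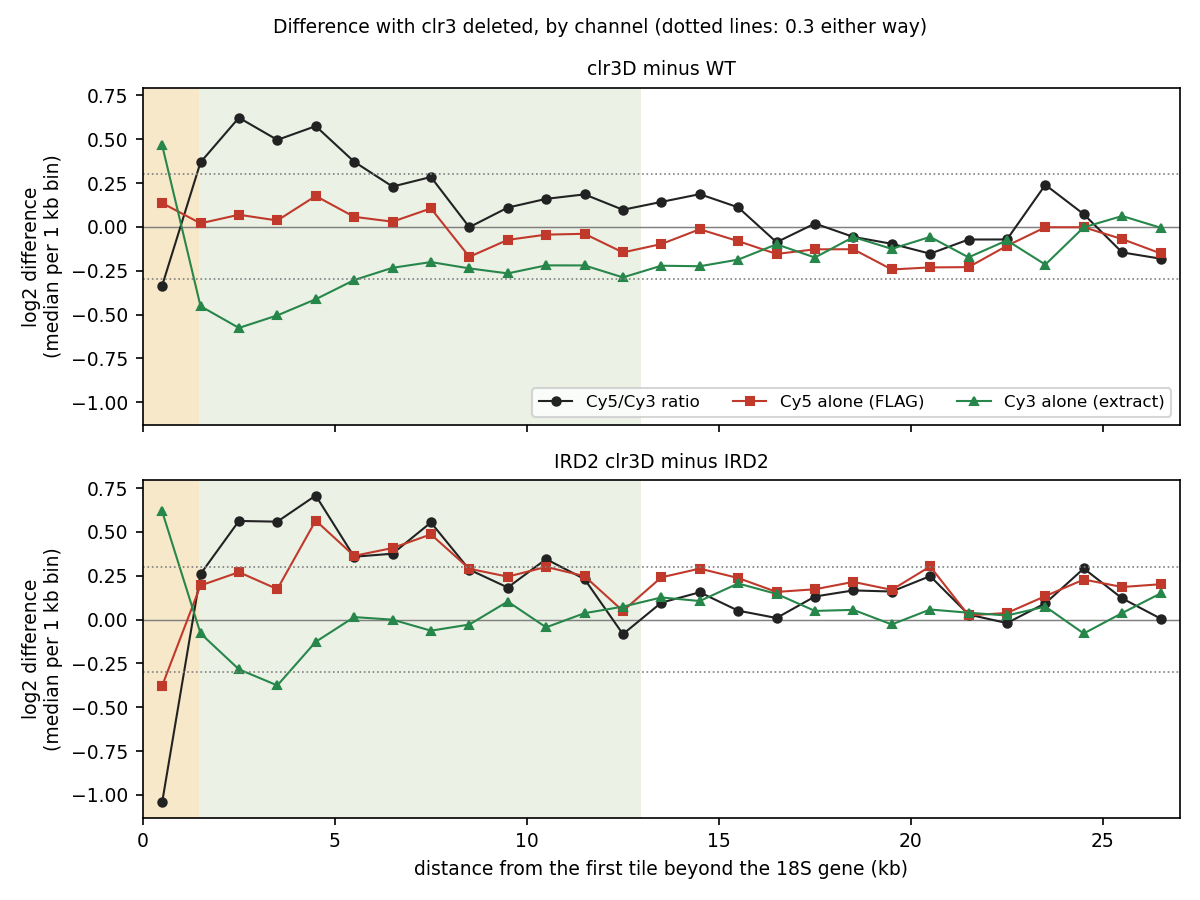
Median log2 difference per 1 kb bin (vertical axis) against distance from the first tile (horizontal axis, kb) for clr3D minus WT (top) and the double mutant minus IRD2 (bottom), for the ratio, the FLAG channel and the extract channel. In the top panel the ratio is at 0.62 in bin 3 and the extract line at -0.58 there, and in the bottom panel the FLAG line reaches 0.56 in bin 5, with the ratio at 0.71.

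All 6 genes of the duplicated stretch had a higher mean ratio without clr3 in both pairs, by 0.12 to 0.30 in clr3D and by 0.26 to 0.54 in the double mutant over IRD2. Of all probes of the array, 48.7% and 51.6% were above 0 in these pairs. The 6 are not separate, since SPNCRNA.6678 overlaps SPCP20C8.02C and SPNCRNA.6679 (32445 to 34927) spans SPCP20C8.03. SPCP20C8.01C (28298 to 29423), which codes for an uncharacterized protein, had 0.14 (WT), 0.43 (clr3D), 0.11 (IRD2) and 0.42 (double mutant). It was higher by 0.30 (SD 0.11) and by 0.31 (SD 0.11), at all 22 tiles in each pair. SPCP20C8.02C (30561 to 31520), also uncharacterized, had 0.22, 0.45, 0.07 and 0.57, and was higher by 0.23 (SD 0.09) and 0.51 (SD 0.12) at all 19 tiles. The non-coding RNA SPNCRNA.6678 (30488 to 31241), which overlaps it on the other strand, was higher by 0.26 and 0.54, and SPNCRNA.449 (29535 to 29898) by 0.21 and 0.44. The pseudogene SPCP20C8.03 (32624 to 33393) was already high in WT at 0.42 and differed by 0.12 and 0.26. These genes have copies at the right end. All 22 tiles of SPCP20C8.01C, 19 of 19 of SPCP20C8.02C and 15 of 16 of SPCP20C8.03 matched DNA there, and the matches of SPCP20C8.02C fell mostly in SPCC569.02C (18 of 19).

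**Figure D4:**
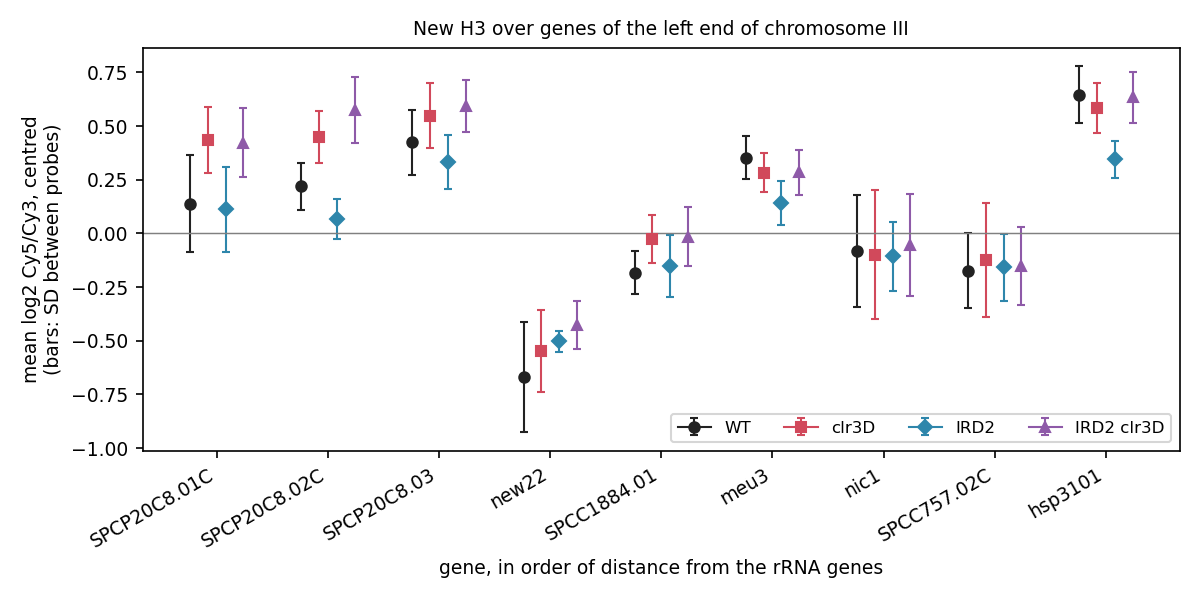
Mean log2 Cy5/Cy3 ratio over the tiles of each protein-coding gene, the pseudogene SPCP20C8.03 and the non-coding RNA meu3 (vertical axis), in order of distance from the ribosomal genes, in the 4 arrays, with the SD between tiles as bars. The first 3 genes read higher in both arrays without clr3, by 0.12 to 0.51, and hsp3101 reads 0.34 in IRD2 against 0.58 to 0.65 in the other 3 arrays.

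Beyond the duplicated stretch the differences without clr3 were smaller. The ratio median of the 278 tiles was -0.03 (WT), -0.03 (clr3D), -0.04 (IRD2) and 0.05 (double mutant). Its difference was -0.03 (SD 0.18) for clr3D minus WT and 0.12 (SD 0.17) for the double mutant minus IRD2. The first was above 0 at 41.7% of the tiles, against 48.7% of all probes, and the second at 76.3%, against 51.6% of all probes. Past the fold, 12 tiles (4.32%) were higher in clr3D and 22 (7.91%) in the double mutant over IRD2. The first share is under the 7.27% of all probes and the second near their 7.52%. Of the 17 genes there, 7 were above 0 in the first pair and 16 in the second. In both pairs the higher ratio ran on past the end of the duplicated stretch. Bins 14 to 16 gave 0.14, 0.19 and 0.11 for clr3D minus WT, and 0.10, 0.16 and 0.05 for the double mutant minus IRD2. From bin 17 on, clr3D minus WT ran from -0.18 (bin 27) to 0.24 (bin 24). SPCC1884.01 (36972 to 38788), an uncharacterized gene next to the duplicated stretch, was higher by 0.16 and 0.14, at 35 and 32 of its 36 tiles. Of these 36 tiles, 6 have a copy elsewhere. The nickel and cobalt transporter gene nic1 (43543 to 46985) differed by -0.02 and 0.05, and SPCC757.02C (44814 to 46912), annotated as an epimerase, by 0.05 and 0.01. The lowest genes outside the repeat in clr3D were SPNCRNA.6684 (42874 to 44453) at -0.15 and SPNCRNA.6685 (49366 to 49718) at -0.14.

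SPNCRNA.1099 had the largest gene difference of clr3D minus WT, 0.30 (SD 0.28), and all 12 of its tiles were above 0. It holds part of a run of 4 dim tiles (46911 to 47120) with a median GC content of 24.2% and a median extract signal of -3.90 in WT. These dim tiles read 0.98 (WT), 1.33 (clr3D), 0.53 (IRD2) and 0.86 (double mutant), above the array median in all 4. The 7 tiles of the bright long terminal repeat read -0.10, -0.19, -0.19 and 0.05. They match many other places, so their signal cannot be assigned to this copy. One of its tiles is printed as the sequence shared by these copies.
long terminal repeat tile, chr3:43211-43270: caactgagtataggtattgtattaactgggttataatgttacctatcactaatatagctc

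IRD2 was compared with WT, and the double mutant with clr3D. In the duplicated stretch IRD2 minus WT was -0.05 (SD 0.14) and the double mutant minus clr3D was 0.03 (SD 0.13), and the latter turned to -0.0125 after loess normalization. The first was above 0 at 33.5% of the tiles, against 48.2% of all probes, and the second at 59.6%, against 50.9% of all probes. In the unique stretch they were -0.04 (SD 0.17) and 0.06 (SD 0.19). No bin was higher past the fold in IRD2 (2.50% of all bins were), and 2 were lower, against 9.19% of all bins. The lowest were bin 1 in the repeat (-0.48), bin 26 (-0.30) and bin 25 (-0.26). Bins 25 and 26 hold hsp3101, which read 0.65 (WT), 0.58 (clr3D), 0.34 (IRD2) and 0.63 (double mutant). Its difference of -0.30 (SD 0.13) from WT was negative at all 24 tiles, and SPNCRNA.1100 beside it differed by -0.32 (SD 0.10) at all 27. The double mutant exceeded IRD2 over these genes by 0.29 and 0.23, so the IRD2 array stood below the other 3 there. Highest in IRD2 against WT were new22 at 0.17 (SD 0.26) and SPNCRNA.6680 at 0.10, and of the bins bin 13 at 0.09. The IRD2 ratio also spread less in the unique stretch, with an SD between tiles of 0.25. It was 0.35 in WT, 0.37 in clr3D and 0.30 in the double mutant. Over all probes of the array the SD was not lower in IRD2, at 0.43 (WT), 0.44 (clr3D), 0.43 (IRD2) and 0.48 (double mutant). The quartiles over all probes were -0.19 and 0.19 in IRD2, against -0.22 and 0.24 in WT. Bins 25 and 26 were the highest in WT, and bin 13, new22 and SPNCRNA.6680 were among the lowest. Whether these differences belong to the genes or to the narrower spread of IRD2 in the unique stretch was not tested.

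The double mutant minus clr3D had 1 bin higher past the fold, bin 21 (43111 to 44120) at 0.33, where 0.364% of all bins were, and 1 lower, the first bin at -1.15, where 6.18% were. Of the genes, SPNCRNA.6684 was highest at 0.25 (SD 0.16), SPNCRNA.449 read 0.18 and SPNCRNA.6682 (40906 to 41993) read 0.16. Against WT, the double mutant had 5 bins higher past the fold (bins 3, 4, 5, 7 and 8), where 6.82% of all bins were, and 1 lower, the first, where 10.5% were. Its highest genes were SPNCRNA.449 at 0.39, SPNCRNA.6678 at 0.38 and SPCP20C8.02C at 0.36. The lowest, apart from both RNAs of the repeat, was SPNCRNA.1100 at -0.09.

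Whether the 2 changes add up was measured as the double mutant minus IRD2 minus clr3D plus WT, which would be 0 for additive log2 ratios. It was 0.07 (SD 0.20) in the duplicated stretch, 0.11 (SD 0.25) in the unique stretch and -0.64 (SD 0.20) over the repeat tiles. All 29 repeat tiles lay below 0. Past the fold were 3 bins above 0 (bins 20, 21 and 26), where 6.73% of all bins were, and 1 below, the first bin, where 5.32% were. hsp3101 had the largest gene value at 0.35 (SD 0.18), followed by SPNCRNA.1100 at 0.35 and SPNCRNA.6684 at 0.32. The low IRD2 readings of hsp3101 and SPNCRNA.1100, in the stretch where the IRD2 ratio spread less, enter these values. In the FLAG channel alone 13 bins were above 0.3, against 4.77% of all bins, and the first bin was at -0.58. The extract channel departed in the same direction. Over the region the median was 0.29 (FLAG), 0.22 (extract) and 0.08 (ratio). It was above 0 at 89.6% of the tiles in the FLAG channel and 89.9% in the extract channel. Of all probes, 52.1% and 53.2% were.

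The right end of chromosome II was set beside the region as another chromosome end. Over the 999 tiles of its outer 50 kb the ratio median was -0.02 (WT), 0.47 (clr3D), 0.09 (IRD2) and 0.36 (double mutant). The clr3D minus WT difference was 0.48 there and 0.26 in the duplicated stretch, and the double mutant minus IRD2 was 0.29 there and 0.40 in the duplicated stretch. The order of the 2 pairs was thus opposite at the 2 ends, and this was not tested. The extract channel of clr3D was lower than WT at both ends, by -0.35 at chromosome II and -0.29 in the duplicated stretch. In the double mutant against IRD2 the FLAG channel was higher by 0.06 at chromosome II and by 0.30 in the duplicated stretch. The extract channel of that pair differed by -0.25 at chromosome II and by -0.05 in the duplicated stretch.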

How the data were processed

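Per the labels, FLAG-bound DNA (Cy5) and whole-cell extract DNA (Cy3) were amplified by random-primed PCR and hybridised together to 1 Agilent 60-mer array for each of 4 genotypes. Per the file headers the 4 arrays share 1 slide and 1 scan. Deposited for each array is a table of spot intensity, made with Agilent Feature Extraction 12.0.3.1, that gives median signals and processed signals, the latter background-subtracted and scaled with 1 linear dye factor per channel, per the file headers. The deposited series table holds a linear Cy5 over Cy3 ratio, which differs from processed Cy5 over processed Cy3 by at most 1.12e-08 (log2). Its column medians were 0.985 (WT), 0.971 (clr3D), 1.01 (IRD2) and 1.00 (double mutant), so it is not centred. The genome build and the aligner behind the probe design are not given in the sources used here.

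The value was log2 of processed Cy5 over Cy3, minus the array's median, with no loess or quantile step. Each channel alone was treated likewise. Outlier spots were left out (9 to 21 per array, 0 in the region), no spot of the region was saturated, and 536 of its 537 tiles were well above background in each array. Median processed signals were 1057 to 1146 in Cy3 and 1062 to 1093 in Cy5, and the number of arrays limits the precision. Bins of 1 kb were summarised by the median and genes by the mean over tiles whose midpoint lies in them, with at least 3 tiles. Genes and bins were named mainly from the 3 highest and 3 lowest in WT and in each difference, and not all of these are given. Background shares were counted over 2199 bins of 1 kb and all probes. Tile copies were found with BLAST 2.17.0 against ASM294v3 (RefSeq), at 48 identical bases or more. The bin summaries were run on simulated independent noise with a known shift, which checks only the computation and not how neighbouring tiles of the array behave. Python 3.11.15, pandas 2.3.3, R 4.3.3 and limma 3.58.1 were used. The planned normexp alternative used median signals, since no mean signal column is present here. Other settings were the FLAG channel alone, loess, scaling, centring, uncorrected medians, tile filters, means, bin size and fold. The region and these rules were chosen with earlier results of these data known.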

Additional observations from a re-analysis of the deposited data

Results flagged for a closer look

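In 3 cases the 2 versions of one change had opposite signs, each from 1 array per genotype, and none of the differences was tested. In the duplicated stretch IRD2 went with a ratio difference of -0.0512 from WT and of 0.0339 when clr3 was also deleted. In the unique stretch IRD2 went with -0.0422 and 0.0555 in the same order. There the clr3 deletion went with -0.0350 in otherwise wild-type cells and with 0.117 in the IRD2 background. This last difference was above 0 at 76.3% of the tiles of the unique stretch.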

How the results depend on the processing

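No paired analysis was possible because each genotype has 1 array, and no replicate could be left out for the same reason. Of 186 recomputed medians over the region and the duplicated stretch, 179 were counted as unchanged. These moved by less than the SD between tiles, and the differences among them kept their sign. The sign of an array's own level was not part of this count. With the FLAG channel alone the region's median was 0.16 in WT and 0.01 in IRD2, against -0.03 and -0.06 for the ratio. With the FLAG channel alone, clr3D minus WT turned to -0.0520 over the region and -0.00844 in the duplicated stretch. In that channel the double mutant minus clr3D was 0.240 and the departure from additivity 0.329 in the duplicated stretch, and SPNCRNA.1094 read 0.0742 for clr3D minus WT. Loess turned the double mutant minus clr3D in the duplicated stretch to -0.0125, and means over tiles turned it to -0.0199 over the region. With the 244 tiles that match 1 place, clr3D minus WT over the region was -0.0248, and the 3 such tiles of the duplicated stretch, too few for a recomputed median there, had 0.192 for clr3D minus WT and -0.0397 for the double mutant minus IRD2. The last cause is in the construction, since those tiles leave out the duplicated stretch, and the cause of the others was not tested.

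The share of bins higher past the fold in clr3D was 18.5% of 27 bins. It was 29.6% by normexp, 29.6% and 7.41% at folds of 0.2 and 0.5, and 0% with the FLAG channel alone. With tiles matching 1 place it was 0%, but of only 14 bins. Only 3 such tiles lie in the duplicated stretch, so the bins that were higher past the fold dropped out and that 0% says nothing about them. For the double mutant minus IRD2 it was 25.9%, with 44.4% and 14.8% at those folds and 0% of the same 14 bins with tiles matching 1 place. For the double mutant minus WT it was 18.5%, with 0% of those 14 bins and from 7.41% to 29.6% over the other settings. The double mutant minus clr3D had 3.70%, ranging from 0% to 11.1%, and the departure from additivity 11.1%, ranging from 0% to 48.1%. Dropping the repeat tiles, chosen after seeing the data, changed the direction of none of the region's medians.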
